A study of Homo sapiens with 12 samples.

Results

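The genes described here are 35 genes of the interferon response and of antigen presentation by MHC class I, among the 58302 genes of the deposited count tables. They were selected from measured values of these same 12 samples, so the levels, fold changes and calls of the 35 genes are given as a description, without p-values. Of the 35 genes, 12 passed the filter on low counts, which asked for 20 counts or more per library on average and left 13454 genes. The gene nearest to this limit from above was IFIT1, with a mean of 24.2 counts, and the nearest from below was IRF1, with 17.6 counts. IFIT1, IFIT2, IFI44 and ISG15 had means of at least 20 counts in the 6 WT samples but not in the 6 dKO samples, so these genes passed through the genotype in which their counts were higher.

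Interferons are secreted proteins that cells release when they sense foreign nucleic acid. Binding to the IFNAR1 and IFNAR2 receptor chains activates the kinases JAK1 and TYK2 and, through them, STAT2. With IRF9, STAT2 forms part of a complex that binds interferon-stimulated response elements in the promoters of target genes. The targets include RNA-binding effectors (the IFIT and OAS families), membrane proteins that block virus entry (the IFITM family), the ubiquitin-like protein ISG15 and the machinery that loads peptides onto MHC class I molecules. Pluripotent stem cells respond weakly to interferon and keep some of these genes on without it, and neurons carry little MHC class I at their surface.

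RNA was sequenced from H1 cells, an established human embryonic stem cell line, after neural differentiation, with 2 samples in each of 6 groups. WT cells carried neither deletion, and dKO cells had lost the catalytic domains of both UTX (KDM6A) and JMJD3 (KDM6B), the demethylases of H3K27me3. The knockout was made with CRISPR in puromycin-selected clones, starting from a JMJD3 knockout line from which the cassette had been removed with Cre, so genotype and clone history cannot be told apart. In each genotype, neural progenitor cells (NPCs), induced by dual SMAD inhibition and grown with bFGF and EGF, were sampled at passage 2 and passage 4, and passage 2 NPCs were also differentiated for 28 days with GDNF, BDNF and cAMP (WT-D28 and dKO-D28 cells). The labels name passage 4 and day 28, and passage 2 was taken from the study's text. The labels give no batch and do not say that the 2 samples of a group were separate cultures, so p-values measure only the spread between these samples, which may be technical.

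Total counts ranged from 756942 to 10601172 per library, and the passage 2 libraries were the shallowest. A count of 3 corresponded to between 0.297 and 3.86 CPM (counts scaled to a common library size, with TMM factors), a floor that covers counting error only. The 2 dKO-D28 libraries stood apart from each other: 5.23% of the tested genes differed more than 2-fold between them, against 0.171% between the WT-D28 libraries and 6.63% and 3.71% between the shallower passage 2 pairs of WT and dKO NPCs. Counts over the whole KDM6A and KDM6B genes do not check the deletions, since reads from the rest of each gene were counted too. KDM6A differed by -0.54 ± 0.28, -0.81 ± 0.22 and -0.04 ± 0.20 (log2, dKO against WT, ± SE) at passage 2, passage 4 and day 28, and KDM6B by -0.13 ± 0.12, 0.61 ± 0.11 and -0.40 ± 0.10. The summed CPM of 7 neural progenitor markers lay between 3230 and 7410 in every library, of which VIM alone made up 1824 to 4792. Single progenitor markers differed between groups under this sum. PAX6 averaged 11.6 CPM in WT-D28 and 269 CPM in dKO-D28 cells, and FABP7 1775 CPM in WT and 81.9 CPM in dKO NPCs at passage 4. Neuron markers summed to 3420 in both WT-D28 libraries and to between 601 and 1040 in dKO-D28 cells. Because RNA was taken from whole cultures, fewer cells of a type and less RNA per cell cannot be told apart in any value below.

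Promoter windows from RefSeq (GRCh38.p14), from 250 bases before to 50 bases after the gene start, were matched for 29 of the 35 genes (all but IFIT2, IFITM2, IRF7, MX2, OAS2 and OASL). The core of the interferon-stimulated response element, searched on both strands as GAAA, any 2 bases, GAAA, was found in 20 of these 29 genes, that is 69.0%, against 4.38% of the 27305 genes with a window. The gamma-activated site, TTC, any 3 bases, GAA, was found in 9 of the 29 (31.0%), against 9.38% of all genes. Among the 12 genes that passed the count filter, 10 had a window, and all of these but STAT2 held the response element core. The 150 bases before the start are shown for genes that were lower in dKO cells (IFI44L, IFI44 and IFIT1), for genes that were higher (IFITM1 and IFITM3) and for the MHC class I light chain B2M. Capitals mark matches to either motif, and all of them are response element cores except the match nearest to the start of IFITM1, a gamma-activated site. IFI44 has more than 1 listed start, and the window of the first is given.
IFI44L (chr1:78620298-78620447, plus strand): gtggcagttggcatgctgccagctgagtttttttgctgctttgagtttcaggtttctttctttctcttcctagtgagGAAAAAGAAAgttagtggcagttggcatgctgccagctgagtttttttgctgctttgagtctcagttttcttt
IFI44 (chr1:78649639-78649788, plus strand): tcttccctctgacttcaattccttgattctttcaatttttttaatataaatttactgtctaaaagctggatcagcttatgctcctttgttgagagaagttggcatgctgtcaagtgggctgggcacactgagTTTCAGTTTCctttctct
IFIT1 (chr10:89392473-89392622, plus strand): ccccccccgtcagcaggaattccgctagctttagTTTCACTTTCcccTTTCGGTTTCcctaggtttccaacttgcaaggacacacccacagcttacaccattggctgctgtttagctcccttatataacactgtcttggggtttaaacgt
IFITM1 (chr11:313890-314039, plus strand): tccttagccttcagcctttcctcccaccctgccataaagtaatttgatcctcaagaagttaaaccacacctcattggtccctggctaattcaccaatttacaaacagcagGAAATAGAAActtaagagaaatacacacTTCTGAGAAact
IFITM3 (chr11:320861-321010, minus strand): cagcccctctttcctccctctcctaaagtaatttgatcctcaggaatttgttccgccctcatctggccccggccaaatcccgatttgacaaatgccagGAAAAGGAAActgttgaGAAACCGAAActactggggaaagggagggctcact
B2M (chr15:44711367-44711516, plus strand): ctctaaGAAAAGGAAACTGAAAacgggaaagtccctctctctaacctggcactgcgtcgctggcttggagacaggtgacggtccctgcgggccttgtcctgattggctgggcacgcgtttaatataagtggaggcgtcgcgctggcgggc
The match lay 73 bases before the start in IFI44L and 18 bases before it in IFI44. IFIT1, IFITM3 and B2M each held 2 matches, which overlapped in B2M. Such a match describes the letters of the window and does not show that a factor binds there.

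The levels of all 35 genes in the 12 libraries are shown in the heat map. Per kilobase of exon, the highest level averaged over the 6 groups was that of IFITM2, with 22.5 RPKM, followed by IFI6 with 14.2, IFITM3 with 14.1, IFITM1 with 13.6 and STAT2 with 8.77. IFIT2 was the lowest of the 12 tested genes, with 0.929 RPKM. STAT2, which carries the interferon signal to the nucleus, lay between 62.9 and 99.5 CPM in the 12 libraries. It was not called in any of the 7 comparisons. The STAT2 libraries of the genotypes overlapped at passage 2 but not later. At passage 4 they measured 62.9 and 74.4 CPM in WT against 88.4 and 99.5 CPM in dKO NPCs (0.45 ± 0.14). At day 28 they measured 73.1 and 75.1 CPM in WT-D28 against 91.9 and 91.1 CPM in dKO-D28 cells (0.30 ± 0.13). IFI6, a mitochondrial and endoplasmic reticulum protein that limits apoptosis and virus replication, lay between 5.14 and 20.4 CPM and was not called in these comparisons either. At passage 4 its libraries did not overlap, with 20.4 and 17.2 CPM in WT against 10.4 and 9.18 CPM in dKO NPCs. The log2 fold change was -0.93 ± 0.26, and it passed the 2-fold limit without WT replicate 2 (-1.06), without dKO replicate 1 (-1.03) and with a correction for GC content and length (-1.04). The 10 other tested genes were each called in at least 1 comparison.

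**Figure D1:**
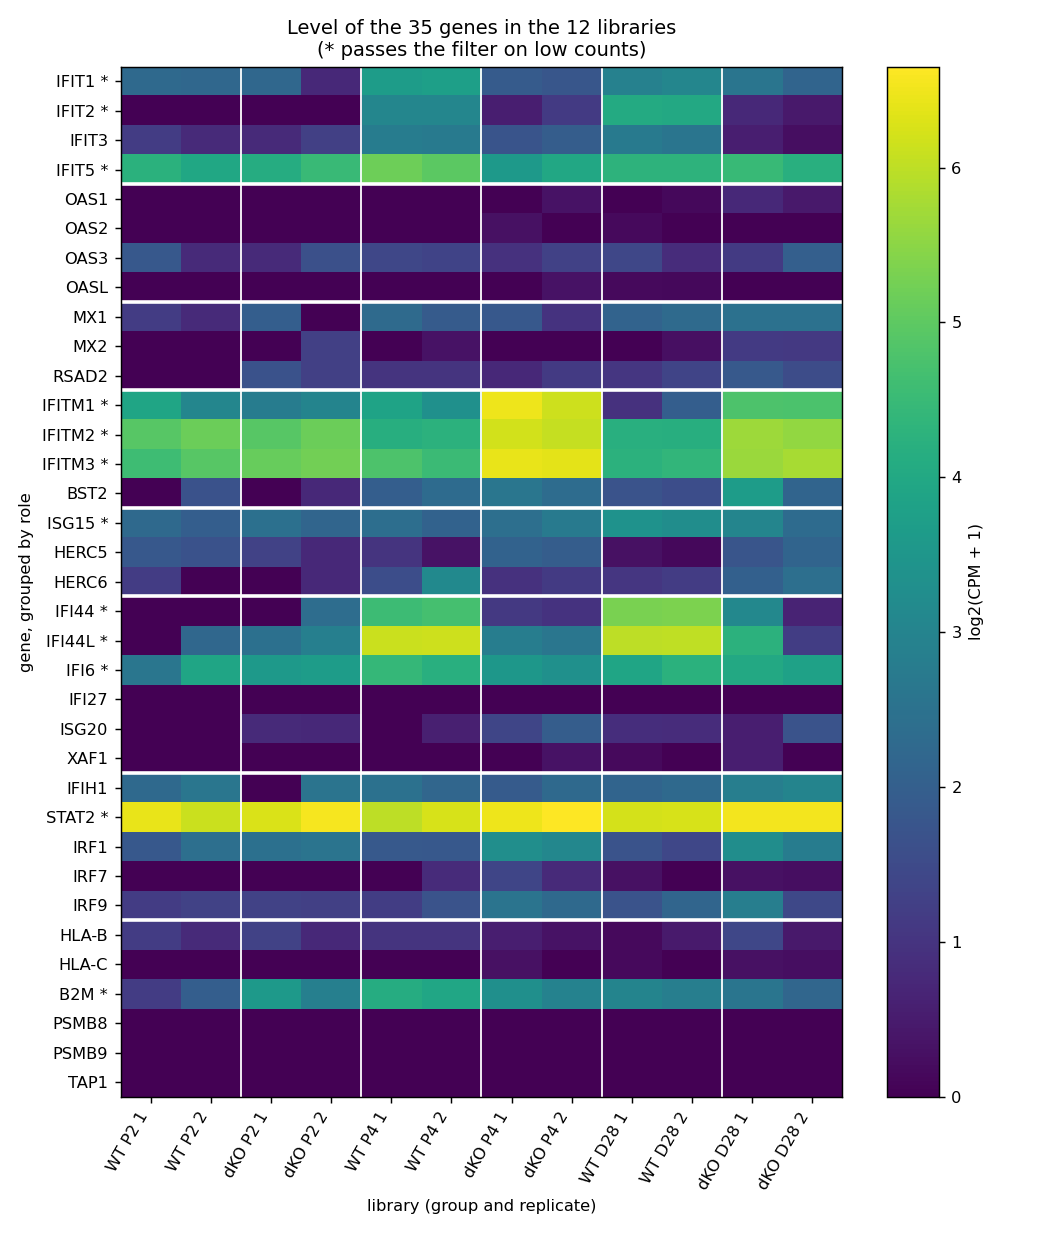
Heat map of log2(CPM + 1) for the 35 genes (rows, grouped by role) in the 12 libraries (columns), with an asterisk at the 12 genes that passed the count filter. IFI44 and IFI44L are brightest in WT cells at passage 4 and day 28, the IFITM genes in dKO NPCs at passage 4, and IFI27, PSMB8, PSMB9 and TAP1 are at 0 throughout.

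IFI44L and IFI44 are neighbouring interferon-induced genes on chromosome 1 whose products restrain virus replication. IFI44L (ENSG00000137959, chr1:78619902-78646145) measured 0 and 3.67 CPM in WT NPCs at passage 2, 68.1 and 69.8 at passage 4 and 62.4 and 63.4 in WT-D28 cells. In dKO cells it measured 4.44 and 6.27 CPM at passage 2, 6.0 and 5.07 at passage 4 and 18.4 and 1.33 at day 28. Every WT library at passage 4 and day 28 was above every dKO library, and the dKO libraries at passage 4 overlapped those at passage 2. The log2 fold change of dKO against WT was -3.63 ± 0.77 at passage 4 and -2.76 ± 0.69 at day 28. The day 28 value rested unevenly on the 2 dKO libraries, being -5.52 without library 1 and -1.77 without library 2, and it kept its direction in both.

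IFI44 (ENSG00000137965, chr1:78649796-78664078) was also highest in WT cells at passage 4 and day 28. It had no count in either WT library at passage 2, then 22.7 and 24.8 CPM at passage 4 and 39.0 and 39.8 CPM at day 28. In dKO cells it measured 0 and 4.18 CPM at passage 2, 1.15 and 0.966 at passage 4 and 7.64 and 0.570 at day 28. WT libraries at passage 4 and day 28 were again above all dKO libraries. The log2 fold change of dKO against WT was -4.45 ± 0.94 at passage 4 and -3.36 ± 0.68 at day 28, the latter -6.03 without dKO-D28 library 1 and -2.36 without library 2. Against a floor of 3 counts over the WT passage 2 pair, IFI44 was at least 16.9-fold higher in WT NPCs at passage 4 and at least 28.1-fold higher in WT-D28 cells.

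The IFIT genes, which encode tetratricopeptide proteins that bind viral RNA, lie together on chromosome 10. IFIT2 (ENSG00000119922, chr10:89283694-89309271) had no count in any of the 4 libraries at passage 2. It measured 7.24 and 7.34 CPM in WT NPCs at passage 4 against 0.462 and 1.21 in dKO NPCs, and 15.6 and 15.3 CPM in WT-D28 cells against 0.716 and 0.380 in dKO-D28 cells. The WT and dKO libraries did not overlap at either stage, with log2 fold changes of -3.09 ± 0.45 and -4.78 ± 0.41. In WT cells IFIT2 was at least 5.20-fold higher at passage 4 and at least 11.0-fold higher at day 28 than the floor of 3 counts over the passage 2 pair, whereas the dKO means at both later stages were under that floor for dKO cells. About 10.3% of the 50-base windows of its longest transcript also occurred in transcripts of other genes.

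IFIT1 (ENSG00000185745, chr10:89392546-89406487) measured 3.86 and 3.67 CPM in WT NPCs at passage 2, 11.8 and 12.4 at passage 4 and 6.62 and 7.34 at day 28, against 3.70 and 0.697, 2.77 and 2.42, and 5.01 and 3.42 CPM in dKO cells. The genotypes overlapped at passage 2 and not later. It was called lower in dKO NPCs at passage 4 (-2.21 ± 0.35) and not at day 28 (-0.74 ± 0.31). IFIT5 (ENSG00000152778, chr10:89414568-89421605), which also binds cellular RNAs, differed between genotypes at passage 4, with 35.5 and 30.6 CPM in WT against 11.1 and 15.0 CPM in dKO NPCs (-1.34 ± 0.20). At day 28 its libraries overlapped, with 18.8 and 18.8 CPM in WT-D28 and 21.5 and 17.5 CPM in dKO-D28 cells. At passage 2 they overlapped as well, with 18.0 and 14.7 CPM against 16.3 and 21.6 CPM. IFIT3, the partner that stabilizes IFIT1, did not pass the filter, with 168 counts in all and between 0.190 and 5.92 CPM per library.

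**Figure D2:**
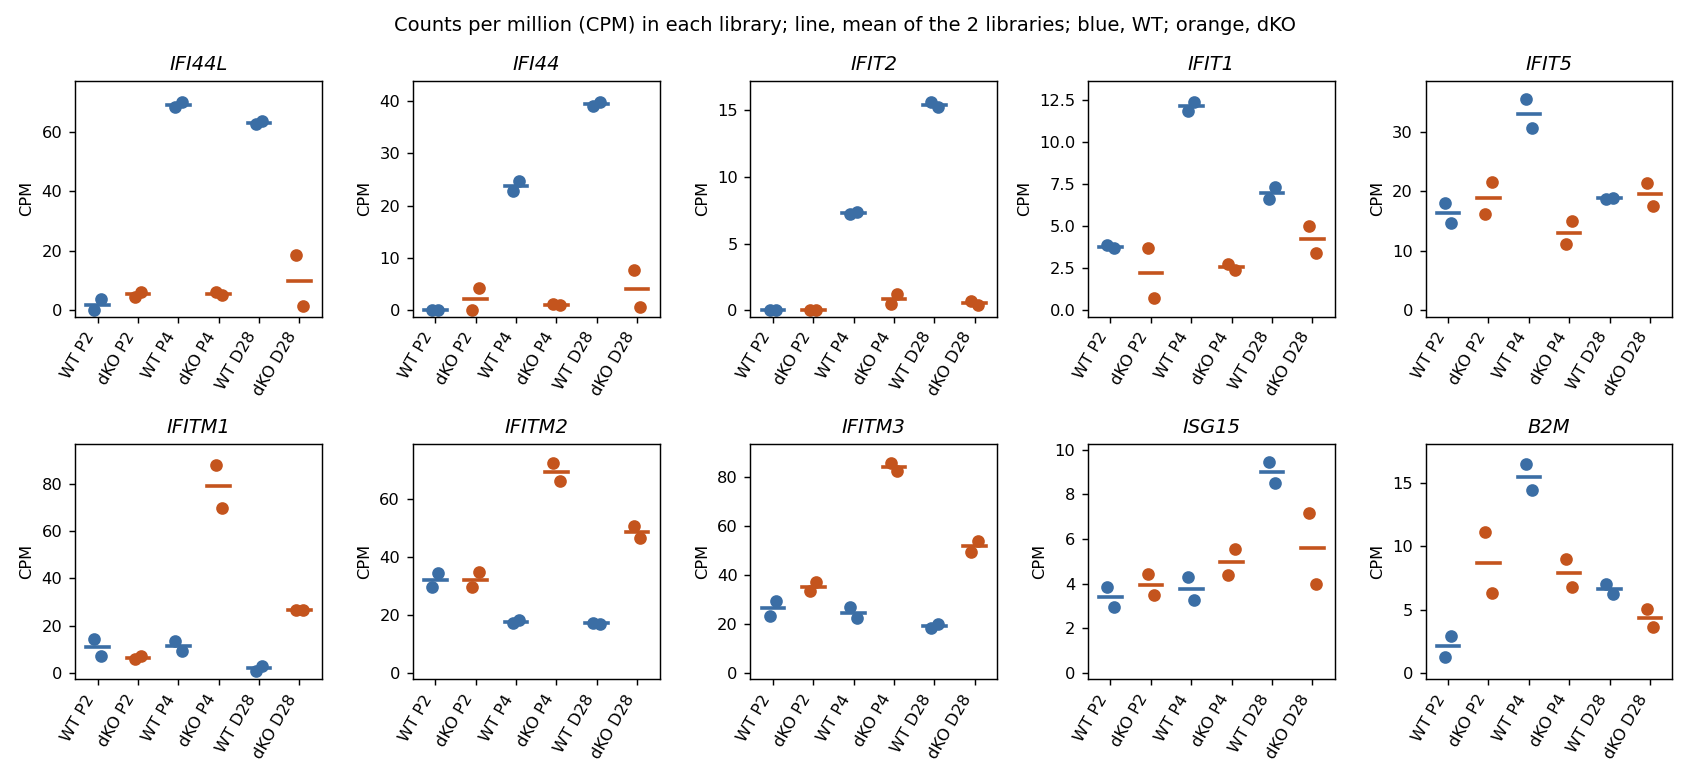
CPM of the 10 genes called in at least 1 comparison, with a point per library and a line at the mean of the 2 libraries of each group (blue, WT, and orange, dKO). In the upper row the WT groups at passage 4 lie above the dKO groups, and in the lower row the IFITM genes show dKO above WT at passage 4 and day 28.

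The IFITM genes, which encode small membrane proteins that trap entering viruses, showed the opposite direction. IFITM1 (ENSG00000185885, chr11:310041-315272) measured 14.2 and 7.34 CPM in WT NPCs at passage 2, above the 5.92 and 6.97 CPM of dKO NPCs. At passage 4 it measured 13.5 and 9.11 CPM in WT against 87.9 and 69.8 CPM in dKO NPCs, and at day 28 0.946 and 2.97 CPM in WT-D28 against 26.8 and 26.4 CPM in dKO-D28 cells. The dKO libraries at both later stages were above every WT library. The log2 fold change was 2.82 ± 0.28 at passage 4, 3.69 ± 0.32 at day 28 and -0.62 ± 0.58 at passage 2, where it was not called.

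IFITM2 (ENSG00000185201, chr11:303655-309397) measured 29.6 and 34.5 CPM in WT NPCs at passage 2 and 29.6 and 34.8 CPM in dKO NPCs. It measured 17.1 and 18.2 CPM in WT against 72.7 and 66.2 CPM in dKO NPCs at passage 4, and 17.4 and 16.9 CPM against 50.6 and 46.6 CPM at day 28. The genotypes overlapped at passage 2 and were fully apart later (log2 fold changes of 1.97 ± 0.16 and 1.5 ± 0.14). IFITM3 (ENSG00000142089, chr11:319676-329475) measured 23.1 and 29.4 CPM in WT against 33.3 and 36.9 CPM in dKO NPCs at passage 2, 26.7 and 22.3 against 85.6 and 82.2 at passage 4, and 18.4 and 19.8 against 49.4 and 53.6 at day 28. Here dKO was above WT at all 3 stages, and the gene was called at passage 4 (1.78 ± 0.15) and day 28 (1.43 ± 0.14). Of the 50-base windows, 38.9% of those of IFITM1, 12% of IFITM2 and 2.87% of IFITM3 also occurred in transcripts of other genes. Most often these were ENSG00000288681 for IFITM1 and IFITM2 and IFITM3P2 for IFITM3, with other IFITM genes also among them. Reads could thus have been dropped or misassigned. BST2, a membrane protein that tethers budding virus, did not pass the filter, with values between 0 and 11.7 CPM, the highest in dKO-D28 library 1.

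Of the ISG15 system, only ISG15 passed the filter. ISG15 (ENSG00000187608, chr1:1001138-1014540), a ubiquitin-like protein that is attached to other proteins, measured 3.86 and 2.94 CPM in WT NPCs at passage 2, 4.28 and 3.29 at passage 4 and 9.46 and 8.52 in WT-D28 cells. In dKO cells it measured 4.44 and 3.48, 4.38 and 5.56, and 7.16 and 3.99 CPM at the same stages. WT-D28 cells were above all other groups, and ISG15 was called higher in WT-D28 cells than in WT NPCs at passage 2 (1.44 ± 0.48) but not between genotypes at any stage, nor between WT stages without WT passage 2 replicate 2 (1.21). HERC5 and HERC6, the ISG15 ligase and its relative, had 69 and 106 counts in all.

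Among the genes of MHC class I presentation, B2M alone passed the filter. B2M (ENSG00000166710, chr15:44711358-44718851), the invariant light chain of every class I molecule, measured 1.29 and 2.94 CPM in WT against 11.1 and 6.27 CPM in dKO NPCs at passage 2. It measured 16.5 and 14.4 CPM against 9.0 and 6.76 CPM at passage 4 and 6.98 and 6.25 CPM against 5.01 and 3.61 CPM at day 28. The dKO libraries were above WT at passage 2 and below WT at passage 4 and day 28, without overlap at any stage. The fold change was called only at passage 2 (1.88 ± 0.59, from 5 counts in the WT pair). That call was lost with the adjusted p, and the value was 1.42 and not called without dKO replicate 1. The fold change was -0.96 ± 0.28 at passage 4 and -0.63 ± 0.30 at day 28. The passage 4 value passed the 2-fold limit without WT replicate 2 (-1.06) and without dKO replicate 1 (-1.18). In WT cells B2M was called higher at passage 4 (2.71 ± 0.49) and at day 28 (1.49 ± 0.54) than at passage 2, the latter 1.16 and not called without WT passage 2 replicate 1.

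The other 5 class I genes lie in the MHC on chromosome 6, where nearly all genes had no counts, so no level is read from them. PSMB8 and PSMB9, subunits of the immunoproteasome, and TAP1, which carries peptides into the endoplasmic reticulum, had 0 counts in all 12 libraries. The heavy chains HLA-B and HLA-C had 29 and 4 counts in all. Between HLA-F and DAXX (chr6:29722775-33323016), 120 of 148 protein-coding genes (81.1%) had no count in any library, against 11.1% on the rest of chromosome 6 and 11.9% on all other chromosomes. Genes that every cell uses also had few or no counts there, such as TUBB and CSNK2B with 0 counts, DDX39B with 1, BRD2 with 5 and the ribosomal protein gene RPS18 with 23. The cause of the low counts in this interval was not tested. Elsewhere, 2 of the 35 genes had neighbours with few counts: IFI27, at 0 in all libraries, and IRF7, with 17 counts, had medians of 0.5 and 21.5 counts over the 10 nearest protein-coding genes. AIF1 and POU5F1, used here as markers of microglia and pluripotent cells, also lie in the MHC interval, so their 0 counts mark nothing.

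**Figure D3:**
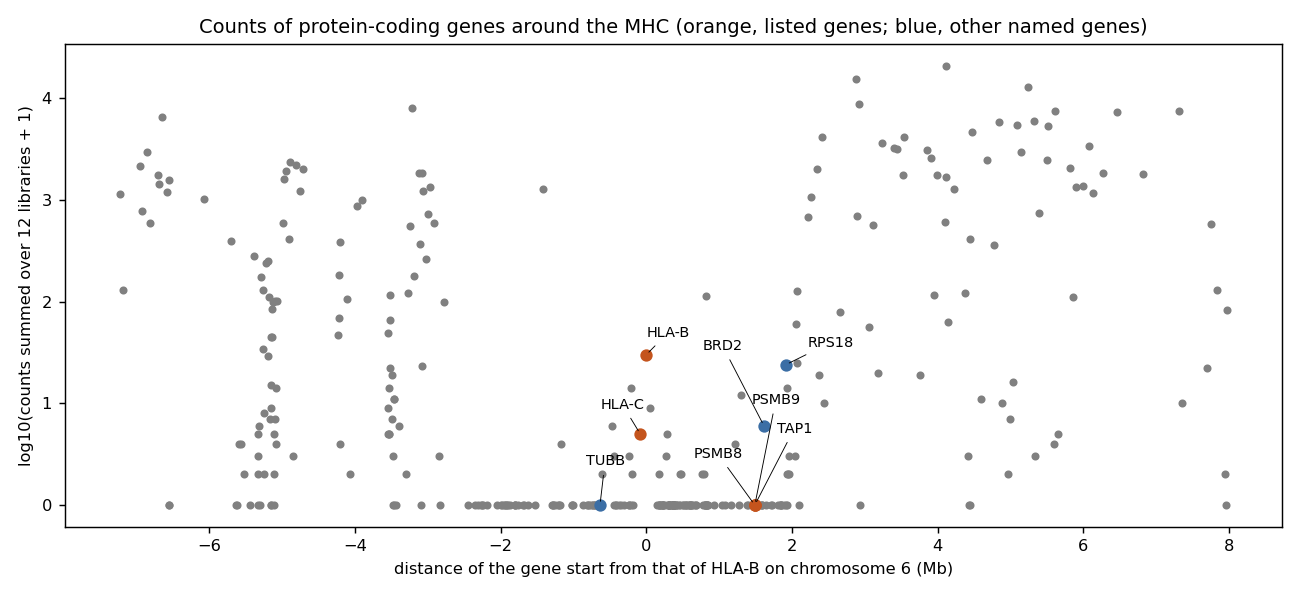
Counts of each protein-coding gene summed over the 12 libraries, as log10(counts + 1), against the distance of its start from that of HLA-B in Mb. Around HLA-B most genes sit at 0, including TUBB, PSMB8, PSMB9 and TAP1, while genes further away on either side reach above 1000 counts.

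The remaining genes that did not pass the filter had between 0 and 211 counts in all. The OAS family makes the signal that activates RNase L: OAS1, OAS2 and OASL had 7, 2 and 3 counts, and OAS3 had 71. The dynamin-like GTPases MX1 and MX2 had 155 and 16 counts, and RSAD2 (viperin), which makes a chain-terminating nucleotide, had 66. XAF1 and the exonuclease gene ISG20 had 4 and 52 counts. The RNA sensor IFIH1 (MDA5) had 204 counts, IRF1 had 211 and IRF9 had 146. IRF1 measured 8.77 and 7.49 CPM in dKO NPCs at passage 4 and 8.60 and 5.89 CPM in dKO-D28 cells, against at most 4.88 CPM in any other library. With every gene kept that had at least 1 count in any sample, 31 of the 35 genes were tested.

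In dKO NPCs at passage 2, 1 of the 12 tested genes was called higher than in WT, B2M, and 0 were called lower in the edgeR quasi-likelihood test (a call asks for an unadjusted p under 0.05 with more than a 2-fold change), with 0 lower also at that p without the fold limit and 0 in DESeq2, while 2.59% and 1.84% of all 13454 tested genes were called higher and lower. At passage 4, 3 genes were called higher (IFITM1, IFITM2 and IFITM3) and 5 lower (IFI44L, IFI44, IFIT1, IFIT2 and IFIT5), against 11.1% and 11.2% of all tested genes. At day 28, the same 3 IFITM genes were called higher and 3 genes lower (IFI44L, IFI44 and IFIT2), against 12.4% and 11.7%. Without dKO-D28 library 1, the log2 fold changes were 3.68 for IFITM1, 1.45 for IFITM2, 1.49 for IFITM3 and -5.22 for IFIT2, and 5 genes were called lower, IFIT1 (-1.02) and ISG15 (-1.15) being added. Since the genes were selected from these measurements, nothing is read from these counts beside the background. IFITM1, ISG15, IFI44L and B2M, 4 of the 12 genes, had dKO and WT libraries fully apart in opposite directions at different stages, as had 30.4% of all tested genes. The median log2 fold change of the 12 genes was 0.21, -0.95 and -0.41 at the 3 stages, and that of all 13454 tested genes was 0.00351, 0.0204 and 0.0026. Nothing is read from these medians either, since IFIT1, IFIT2, IFI44 and ISG15 passed the filter through the WT samples. The passage 2 median also includes IFIT2, which had no count in any library of that stage.

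**Figure D4:**
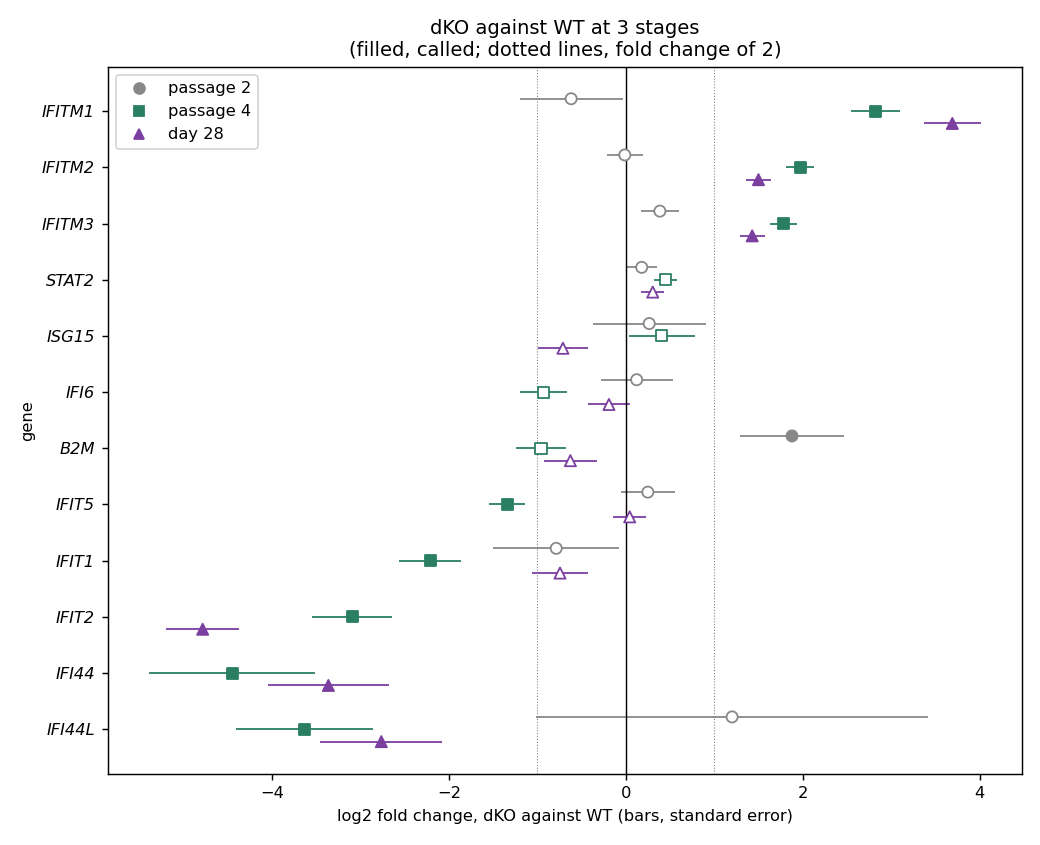
Log2 fold change of dKO against WT with its standard error for the 12 tested genes at passage 2 (grey circles), passage 4 (green squares) and day 28 (purple triangles), filled where called. The IFITM genes lie to the right at passage 4 and day 28 and IFIT2, IFI44 and IFI44L to the left. IFIT2 and IFI44 have no passage 2 value because WT libraries were at 0.

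Between day 28 and passage 2, WT cells had 5 genes called higher (IFIT2, IFI44L, IFI44, B2M and ISG15) and 1 lower (IFITM1, -2.27 ± 0.55), where 12.9% and 11.5% of all tested genes were called higher and lower. In dKO cells 1 gene was called higher (IFITM1, 2.04 ± 0.41) and 1 lower (B2M, -1.01 ± 0.39), against 4.01% and 3.14%. IFITM1 lay between 2.03 and 2.04 without either dKO-D28 library, and B2M was not called without dKO-D28 library 2 (-0.78) or without dKO passage 2 replicate 1 (-0.55). The B2M call was also lost with DESeq2, with the adjusted p, in a fit of the 4 samples alone, with the filter of at least 1 count and with the GC content and length correction. IFI44L and IFI44 were not called there (0.78 ± 1.28 and 0.81 ± 1.48), and both turned with the library left out, from 1.77 and 1.81 without dKO-D28 library 2 to -1.99 and -1.86 without library 1. From passage 2 to passage 4, WT NPCs had 6 genes called higher (IFIT2, IFI44L, IFI44, IFIT5, B2M and IFIT1) and 0 called lower in edgeR (1 at the unadjusted p without the fold limit, 0 in DESeq2), against 10.3% and 9.49%. Of these, IFIT5 was not called without WT passage 2 replicate 2 (0.87) or WT passage 4 replicate 1 (0.94). In dKO NPCs 4 genes were called higher and 0 lower in edgeR (1 lower at the unadjusted p without the fold limit, 0 in DESeq2), against 4.61% and 5.22%: IFITM1 (3.60 ± 0.37), IFITM2 (1.11 ± 0.16), IFITM3 (1.25 ± 0.16) and IFIT2, the last from 7 counts against 0. IFIT2 was not called there by DESeq2, with the adjusted p or in a fit of the 4 samples alone. Nor was it called without either passage 2 library or without dKO passage 4 replicate 2 (3.99). IFITM2 was not called without dKO passage 2 replicate 1 (1.00). The 2 comparisons within each genotype share the passage 2 libraries.

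Markers of other cell types moved with the same groups. At passage 4, 6 of 6 tested neuron markers fell in dKO NPCs, and the summed CPM of the 7 listed was between 775 and 806 against 4060 to 4600 in WT. Of 5 tested astrocyte markers, 4 fell in dKO cells at passage 4 and at day 28, among them SLC1A3 (-6.68 ± 0.19 and -4.07 ± 0.18, edgeR adjusted p = 2.01e-12 and 1.11e-10), and 1 rose. In WT cells, 5 of 6 neuron markers and 4 of 5 astrocyte markers rose from passage 2 to passage 4 and from passage 2 to day 28, the comparisons in which IFI44L, IFI44 and IFIT2 were called higher. The neuron sum was between 1130 and 1280 CPM in WT NPCs at passage 2. Epithelial markers summed to between 524 and 539 CPM in dKO against 21.0 to 25.3 in WT NPCs at passage 4, and to between 786 and 1490 in dKO-D28 against 22.1 to 22.6 in WT-D28 cells, with 4 of 5 and 5 of 5 markers higher. Mesenchymal markers summed to between 1720 and 1740 CPM in dKO against 252 to 265 in WT NPCs at passage 4. The collagen genes COL1A1, COL1A2 and COL3A1 were called higher there, while LUM (0.75), PRRX1 (1.70) and PDGFRB (-0.26) were not called. At day 28, COL1A1 (2.53), COL1A2 (2.60) and LUM (2.29) were called higher in dKO, COL3A1 (-2.10) and PDGFRB (-1.81) lower, and PRRX1 was not called. Of the 2 dKO-D28 libraries, library 1 had the larger neuron sum and the smaller epithelial sum. Markers of microglia and blood summed to between 0.329 and 4.38 CPM in every library, and TYROBP was at 0 in all 6 groups. The part of these other cell types in the differences above was not tested.

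Of 136 other genes listed for the pathway, 60 passed the filter, and these were tested with edgeR with Benjamini-Hochberg adjustment over all 13454 genes. In the 10 interferon genes listed, 8 had no count, IFNW1 had 2 counts and IFNL2 had 1. Of 9 receptors and kinases, 8 were tested, and at passage 4, 1 rose and 1 fell in dKO NPCs. IFNGR2, a chain of the interferon gamma receptor, named after its values were seen, measured 1.98 and 5.31 CPM in WT against 9.92 and 8.21 CPM in dKO NPCs (1.25 ± 0.38, adjusted p = 0.0129). IFNAR1, the signalling chain of the type I receptor, measured 105 and 110 CPM in WT against 52.4 and 52.7 CPM in dKO NPCs at passage 4, and it fell in dKO (-1.03 ± 0.13, adjusted p = 6.47e-06), just past the fold limit and not past it without WT replicate 2 (-0.99) or with a correction for GC content and length (-0.80). IFNAR2, the ligand-binding chain, lay between 7.34 and 23.4 CPM and was called at no stage. Among 4 tested transcription factors and feedback genes, IRF3 and SOCS3 rose in dKO NPCs at passage 4, IRF3 being named after its values were seen. At day 28 none of the 4 was called in edgeR, where 2 were higher at an unadjusted p below 0.05 without the fold limit. Of 10 tested nucleic acid sensors and adaptors, 2 rose at passage 4 (IFI16 and, named after its values were seen, the kinase gene IKBKE). Of 29 tested genes among 63 other interferon-stimulated genes, 5 rose and 2 fell at passage 4, and 9 rose and 1 fell at day 28.

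At passage 2, 5 of the 60 genes were called higher and 0 lower in edgeR (10 and 0 without the fold limit), 4 and 0 in DESeq2, where 2.59% and 1.84% of all tested genes were called, and 0 of the 5 passed the adjustment. At passage 4, 11 genes rose and 3 fell in dKO NPCs, and at day 28, 11 rose and 1 fell (SAMHD1, a nucleotide hydrolase), all with adjusted p below 0.05. Of all tested genes, 11.1% and 11.2% were called higher and lower at passage 4 and 12.4% and 11.7% at day 28. SAMHD1, named after its values were seen, also fell at passage 4. TRIM38, a ubiquitin ligase that restrains innate signalling, measured 0.658 and 0 CPM in WT against 5.31 and 2.66 CPM in dKO NPCs at passage 4 and 1.06 and 1.69 against 18.9 and 25.3 CPM at day 28. TRIM38 passed the filter through the dKO samples, with a mean of 4.83 counts in WT and 41.5 in dKO libraries. CD74 and PLSCR1 below, and SLFN12, named after its values were seen, passed in the same way. These 4 genes are among the 11 that rose at each stage, so their fold changes and adjusted p-values are a description. Of the 60 genes, 2 passed through the WT samples only. The TRIM38 libraries did not overlap at either stage (3.66 ± 0.79, adjusted p = 0.00118, and 3.96 ± 0.37, adjusted p = 2.03e-07). SLFN5, an interferon-induced nuclear protein, rose at both stages, from 4.61 and 5.82 to 29.8 and 30.2 CPM at passage 4 and from 6.86 and 8.43 to 33.2 and 34.03 CPM at day 28. Its log2 fold changes were 2.50 ± 0.22 (adjusted p = 1.16e-07) and 2.13 ± 0.17 (adjusted p = 3.81e-08).

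IFI16, a nuclear DNA sensor, measured 0.987 and 3.04 CPM in WT against 13.2 and 18.6 CPM in dKO NPCs at passage 4 (2.88 ± 0.41, adjusted p = 2.74e-05), and its day 28 libraries overlapped. SOCS3, a feedback inhibitor of JAK kinases, measured 8.89 and 7.34 CPM against 55.2 and 54.8 CPM at passage 4 (2.77 ± 0.22, adjusted p = 4.29e-08) and between 70.5 and 79.5 CPM in all day 28 libraries. PLSCR1, an interferon-induced phospholipid scramblase, measured 3.19 and 2.97 CPM in WT-D28 against 14.1 and 16.7 CPM in dKO-D28 cells (2.32 ± 0.24, adjusted p = 6.71e-07), and 2.30 and 2.53 CPM in WT against 7.62 and 7.25 CPM in dKO NPCs at passage 4 (1.60 ± 0.33, adjusted p = 0.000777). Without either dKO-D28 library the day 28 values of TRIM38, SLFN5, CD74, ERAP1 and PLSCR1 kept their direction and call. IFI16, SOCS3 and PLSCR1 were thus higher in dKO at passage 4, and PLSCR1 at day 28 as well.

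Of the listed partners of MHC class I, 7 of 16 were tested, and 1 was called between genotypes, at day 28. ERAP1, which trims peptides for class I molecules, measured 13.8 and 13.4 CPM in WT-D28 against 73.1 and 79.1 CPM in dKO-D28 cells (2.48 ± 0.15, adjusted p = 1.40e-09). At passage 4 ERAP1 was not called. Its log2 fold change there passed the 2-fold limit without WT replicate 2 (1.14) and without dKO replicate 1 (1.03). With the correction for GC content and length it was 1.16. CD74, the invariant chain of MHC class II, measured 0.591 and 0.793 CPM in WT-D28 against 11.2 and 20.2 CPM in dKO-D28 cells (4.44 ± 0.39, adjusted p = 9.83e-08), while 6 of the 10 listed class II genes had no count and all but CD74 and CIITA lie in the MHC interval.

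**Figure D5:**
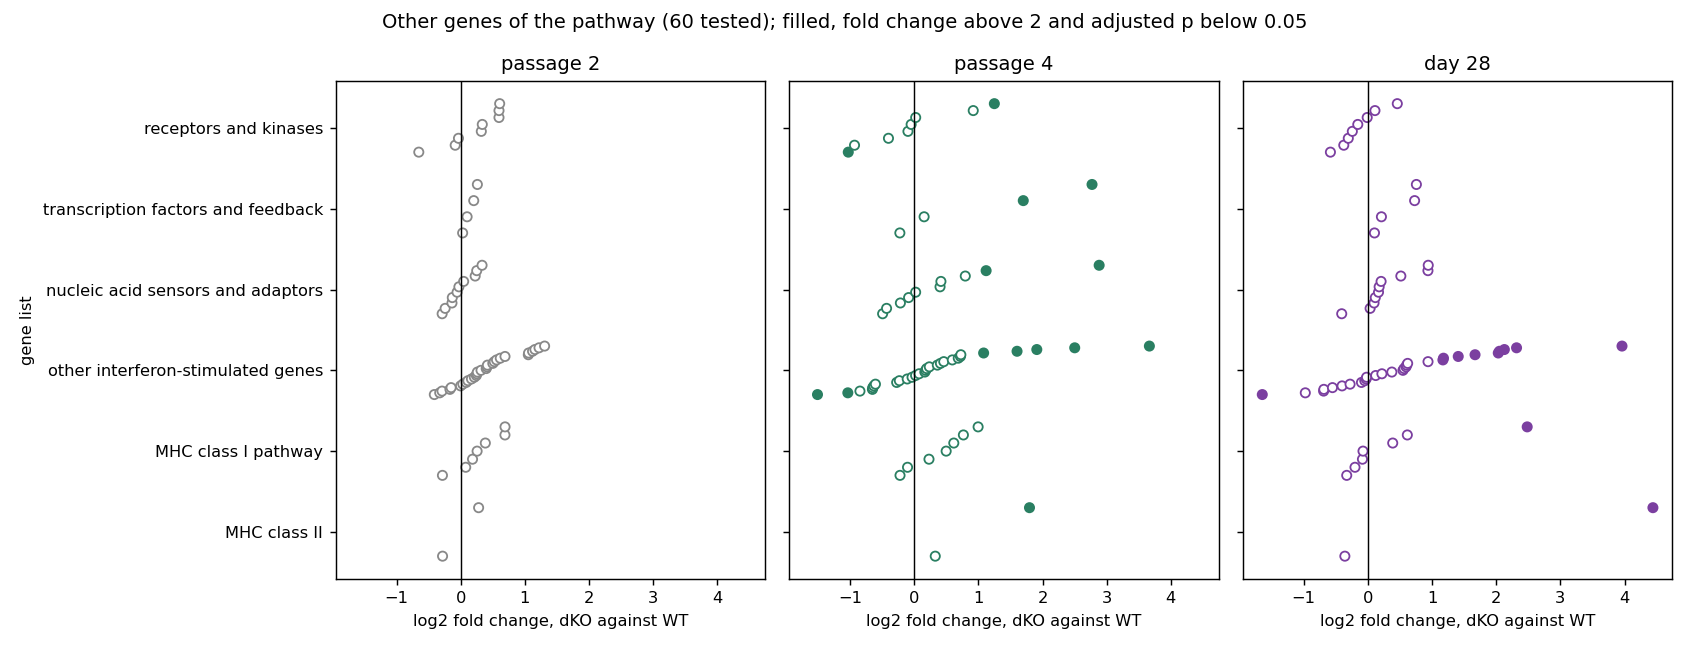
Log2 fold change of dKO against WT for the 60 tested genes of the pathway outside the 35, by list (rows) and stage (panels), filled where the fold change was above 2 and the adjusted p below 0.05. No point is filled at passage 2, and at passage 4 and day 28 most filled points lie to the right of 0.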

How the data were processed

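RNA-seq was done on 12 samples, 2 in each of 6 groups defined by genotype and stage. RNA was extracted with TRIzol and sequenced on an Illumina NextSeq after TruSeq library preparation. Per the submitters' processing notes, the authors used HISAT2 2.0.4, SAMtools 1.3.1, HTSeq 0.6.0 and DESeq 1.18.1 with GRCh38, and they deposited raw read counts per gene. The annotation release and strand setting are not given in the sources used here, so overlapping and antisense genes cannot be told apart.

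The counts were fitted with edgeR 4.0.16 in R 4.3.3 (quasi-likelihood, TMM library sizes, 6 group means) for genes averaging 20 or more counts per sample. A call needed more than a 2-fold change and an unadjusted p under 0.05, as in the study. Benjamini-Hochberg adjustment ran over all 13454 genes. The fit was tested on simulated data with 200 changed genes. Total counts were 756942 to 10601172 per sample. Reads carried no molecular identifiers. An exact permutation test of 2 against 2 samples cannot go below a two-sided p of 0.333, so none is given.

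The 35 genes and all lists were chosen with earlier results of these data known. Values per sample were printed for genes of the 35 called between genotypes or between day 28 and passage 2. Those of STAT2, IFI6 and IRF1 fell outside this rule and were printed after the values were seen. Of other pathway genes, those named were IFNAR1, IFNAR2, interferons with counts, and the 4 with the largest called change (adjusted p below 0.05) per genotype comparison. Some items that the rule names are not reported here. Gene IDs were matched to GENCODE release 44 (57532 of 58302 genes), which gave positions, lengths and 50-base windows shared between transcripts. Alternatives were DESeq2 1.42.0, other count filters, adjusted p, fits of 4 samples, a GC content and length correction, a replicate block and leaving out each sample.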

Additional observations from a re-analysis of the deposited data

Results flagged for a closer look

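The effect of the knockout (log2 fold change, dKO against WT) was called different between stages for 7 of the named pathway genes outside the 35. The call used the interaction term of the edgeR fit with Benjamini-Hochberg adjustment over all genes. All of the 7 but IFNAR1 were named for a large called change between genotypes in these same samples. IFNAR1 was listed with earlier results of these data known. A difference between stages is partly built in by that choice. The changes and adjusted p-values are therefore a description, and nothing is read from how many of the named genes differed. From passage 2 to passage 4 it changed by -1.36 for IFNAR1 (adjusted p = 0.000379), 3.17 for IFI16 (adjusted p = 0.00396), 2.57 for SOCS3 (adjusted p = 4.73e-05), 1.94 for SLFN5 (adjusted p = 0.000748), 2.08 for CD74 (adjusted p = 0.0483) and 1.49 for PLSCR1 (adjusted p = 0.0347). From passage 2 to day 28 it changed by 1.57 for SLFN5 (adjusted p = 0.00129), 4.73 for CD74 (adjusted p = 0.000142), 2.23 for ERAP1 (adjusted p = 4.11e-06) and 2.21 for PLSCR1 (adjusted p = 0.00096).

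For 4 of the 12 tested genes of the 35, both dKO libraries lay on one side of both WT libraries at 1 stage and on the other side at another stage, as was the case for 30.4% of all tested genes. Since these genes were selected from the measurements, the differences between stages are given as a description, without p-values. IFITM1 had log2 fold changes of -0.62 at passage 2, 2.82 at passage 4 and 3.69 at day 28, a change from passage 2 of 3.44 ± 0.67 and 4.31 ± 0.70 (both called). B2M had 1.88 at passage 2, -0.96 at passage 4 and -0.63 at day 28, a change of -2.84 ± 0.64 and -2.51 ± 0.66 (both called). IFI44L had 1.20 at passage 2, where 1 WT library had no count, -3.63 at passage 4 and -2.76 at day 28, a change of -4.83 ± 2.31 and -3.96 ± 2.25 (neither called). ISG15 had 0.41 at passage 4 and -0.71 at day 28, neither of them called, and the difference between these stages was not tested.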

How the results depend on the processing

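The log2 fold changes of the 12 tested genes of the 35 kept their call, or lack of one, under an alternative 911 times. They lost a call 21 times and gained a call 19 times, and those of the other pathway genes followed did so 867, 14 and 8 times. Among the kept, 29 and 25 values that were called in neither setting changed sign. Without dKO-D28 replicate 1 these included IFI44 (0.81 to -1.86) and IFIT5 (0.03 to -0.12) in dKO cells from passage 2 to day 28, and IFIT5 (0.04 to -0.10) and IFI16 (0.16 to -0.27) in dKO against WT at day 28. A single value that was called in either setting reversed, that of IFI44L in dKO cells from passage 2 to day 28, at -1.99 without dKO-D28 replicate 1 and 1.77 without replicate 2. The replicate numbers were shared between genotypes, but same-numbered WT and dKO samples deviated together only weakly (correlations of 0.194 at passage 4, 0.0635 at passage 2 and -0.0467 at day 28), so they share only a number. A replicate block changed no call of a named gene. With the replicate block and the correction for GC content and length, as with that correction alone, the other pathway genes called in dKO NPCs were 3 higher at passage 2 and 1 lower at passage 4, and 2 and 0 of the 35 were called lower from passage 2 to day 28 in WT and dKO cells.

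DESeq2 called 0 of the 35 lower in dKO cells from passage 2 to day 28 and 1 other pathway gene lower from passage 2 to passage 4. With the adjusted p, 0 of the 35 and 0 other genes were higher in dKO NPCs at passage 2, and 0 of the 35 lower from passage 2 to day 28 in dKO cells. Fitting only the samples compared gave 2 of the 35 higher at passage 2, 0 lower from passage 2 to day 28 in dKO cells and 1 other gene lower from passage 2 to passage 4 in dKO cells.

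With at least 1 count in any sample, 31 of the 35 genes were tested. Those called higher in dKO than in WT were 2 at passage 2, 7 at passage 4 and 8 at day 28, and from passage 2 to day 28 they were 8 higher and 2 lower in WT and 5 higher and 0 lower in dKO cells. The other genes called in dKO against WT were 8 higher and 1 lower at passage 2, 18 and 11 at passage 4 and 27 and 7 at day 28. They were 14 higher from passage 2 to day 28 in either genotype, 15 higher from passage 2 to passage 4 in WT and 3 lower in dKO cells. With at least 10 counts in every sample, 4 of the 35 were tested. They then gave 0 higher at passage 2, 1 lower at passage 4, 0 lower at day 28, 0 in either direction from passage 2 to day 28 in WT or dKO cells, and 1 and 2 higher from passage 2 to passage 4 in WT and dKO cells. The other genes gave 0, 3 and 5 higher at passage 2, passage 4 and day 28, 1 higher and 3 lower from passage 2 to day 28 in WT and 0 higher in dKO cells, and 2 higher and 4 lower from passage 2 to passage 4 in WT and 0 higher in dKO cells. These 2 filters change how many genes are tested. The share of all genes called under them is not given here, so nothing is read from these counts. Elsewhere the cause was not tested.

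Leaving out 1 sample at a time gave, of the 35, 0 to 1 higher at passage 2 (0 without dKO replicate 1), 5 to 7 lower at passage 4, 3 to 5 lower at day 28, 1 to 2 lower from passage 2 to day 28 in WT, 1 to 3 higher and 0 to 2 lower in dKO cells, and 2 to 4 higher from passage 2 to passage 4 in dKO cells. The other genes gave 2 to 3 higher at passage 2, 1 to 4 lower at passage 4, 1 to 3 lower at day 28 and 0 to 1 lower from passage 2 to day 28 in dKO cells. From passage 2 to passage 4 they gave 5 to 9 lower in WT, and 2 to 3 higher and 0 to 2 lower in dKO cells. Each arm then held 1 sample, assumed to vary like the other groups. The alternatives for the 2 passage comparisons were added after the data were seen. The labels give no batch, so batch and group cannot be told apart.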
